A study of Homo sapiens with 6 samples.

Results

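The cytosolic ribosomal protein genes are the protein-coding genes of the table whose symbol is RPL or RPS followed by an optional P, a number and an optional A or X, together with RPSA. This rule on gene names found 77 genes of 58978, with 31 of the small (40S) subunit and 46 of the large (60S) subunit. No measured value entered the rule, but the family was chosen with earlier results of these data known. Messenger RNA was measured by RNA-seq in HT29 cells, an established human colorectal adenocarcinoma line, labelled FITM2 knockdown and carrying the hairpin shFITM2 (3 libraries) or labelled WT and carrying the control hairpin shCTRL (3 libraries). Both groups were untreated and were grown in McCoy's 5A medium. FITM2 is an endoplasmic reticulum protein needed for lipid droplets to bud. No label states that the replicates are separate cultures or clones, and the p-values therefore speak of variation among the 6 libraries alone, part of which may be technical.

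Ribosomal proteins fold around the ribosomal RNAs and are made in near-equal numbers, since each ribosome holds a single copy of nearly all of them. Their mRNAs are among the most abundant of a proliferating cell. Most of them begin with a C followed by an unbroken run of pyrimidines, the 5′ terminal oligopyrimidine (TOP) tract, through which LARP1 and the kinase mTORC1 control their translation. When ribosome assembly is disturbed, free RPL5 and RPL11 bind MDM2, a ubiquitin ligase, and inhibit it. Translation and protein were not measured in these libraries.

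The start of a ribosomal protein mRNA is shown here for 6 members, 4 that were higher and 2 that were lower in shFITM2 cells in both fits used here, because it carries the feature that the family shares. Each line runs 5′ to 3′ over 60 bases, 40 before and 20 from the start that RefSeq annotates on GRCh38.p14. Capitals mark the C-led pyrimidine run nearest that start. The windows are chr19:5690255-5690314 (plus strand) for RPL36, chr11:8682752-8682811 (plus strand) for RPL27A, chr11:119018324-119018383 (minus strand) for RPS25, chr11:75399478-75399537 (plus strand) for RPS3, chr12:120201092-120201151 (minus strand) for RPLP0 and chr4:151099588-151099647 (plus strand) for RPS3A.
RPL36: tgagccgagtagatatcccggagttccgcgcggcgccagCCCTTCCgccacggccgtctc
RPL27A: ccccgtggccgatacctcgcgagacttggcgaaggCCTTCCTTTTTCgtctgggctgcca
RPS25: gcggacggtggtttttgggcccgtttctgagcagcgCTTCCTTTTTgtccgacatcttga
RPS3: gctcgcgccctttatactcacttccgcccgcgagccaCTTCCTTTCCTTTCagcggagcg
RPLP0: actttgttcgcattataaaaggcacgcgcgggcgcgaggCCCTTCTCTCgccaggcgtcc
RPS3A: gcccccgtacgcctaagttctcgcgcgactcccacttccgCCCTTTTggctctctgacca
All 6 shown have such a run beginning within 5 bases of the annotated start, but they do not stand for all members called in both fits. In RPL21 and RPS10, the other members lower in both fits, the nearest run began at -7 and -6 bases from the start. Some members higher in both fits also fell outside the 5 bases, such as RPL11 at -13.

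RefSeq promoters were matched for 62 of the 77 members, each covering 250 bases before to 50 after the start. A C followed by at least 5 pyrimidines on the transcribed strand began within 5 bases of the start in 37 of the 62 (59.7%), against 10.0% of all 35116 promoters. Within 20 bases on either side it was found in 54 (87.1%) of the members, against 30.9% of all promoters. The run began within 5 bases of the start in 19 of 28 members that were called higher, in 3 of 7 called lower and in 15 of 27 not called. CCGGAAG, searched on both strands, was found in 21 of the 62 members (33.9%) and in 10.3% of all promoters. The share was 8.06% against 11.5% for TATAAA, and 12.9% against 5.84% for AAGATGG, both also searched on both strands. CCGGAAG and AAGATGG, searched separately, can each share bases with a pyrimidine run read on the opposite strand. A match describes letters only.

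The libraries held 18263911, 17518562 and 16964075 read counts in shFITM2 cells and 18855731, 18342300 and 17176487 in shCTRL cells. FITM2 itself had 4.83, 5.98 and 4.95 CPM (read counts scaled to library size) in shFITM2 libraries, against 13.2, 10.5 and 10.4 CPM in shCTRL libraries. The 9 colon epithelium markers examined all had reads, but CDX1 and CDX2 had few. CDX1 averaged 0.45 CPM in shFITM2 libraries and 0.84 CPM in shCTRL libraries, and CDX2 1.72 and 0.82 CPM. CEACAM5, the next lowest of the 9, averaged 20.4 and 14.9 CPM. The summed level of 8 markers of immune, stromal and endothelial cells was 1.95 to 2.19 CPM in shFITM2 libraries and 1.43 to 3.32 CPM in shCTRL libraries, with 2 of them at 0 throughout. A gene was called when edgeR's quasi-likelihood F-test gave a Benjamini-Hochberg adjusted p under 0.05 over all 14809 genes tested. All 77 members passed the filter on low counts.

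Ribosomal protein genes together took a larger share of the reads in shFITM2 cells. They held 6.42%, 6.47% and 6.29% of all counts in shFITM2 libraries, against 5.45%, 5.45% and 5.68% in shCTRL libraries. All 3 shFITM2 libraries lay above all 3 shCTRL libraries, and the means were 6.40 ± 0.0930% and 5.53 ± 0.136% (SD, n = 3 each). The difference of 0.868 points was larger than the spread between replicates, and its exact two-sided permutation p was 0.1, the smallest that 3 against 3 libraries allow. The family was chosen with earlier results of these data known, so this p is descriptive only. The widest 95% Wilson interval of a library's share was ± 0.0116 points, which covers counting error only. Over nuclear protein-coding counts alone the share was 7.02 ± 0.0893% in shFITM2 cells and 6.16 ± 0.123% in shCTRL cells. The share of mitochondrially encoded genes stood the other way, at 7.06 ± 0.243% in shFITM2 libraries and 8.49 ± 0.638% in shCTRL libraries. These are shares of the reads, so more of these mRNAs per cell and less of other RNA per cell cannot be told apart.

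Both subunits held larger shares in shFITM2 cells. RPS genes held 2.44 ± 0.0388% of counts in shFITM2 libraries and 2.07 ± 0.0348% in shCTRL libraries. RPL genes held 3.96 ± 0.0554% in shFITM2 libraries and 3.46 ± 0.103% in shCTRL libraries. The ratio of RPS to RPL reads was 0.616 ± 0.00311 in shFITM2 libraries and 0.599 ± 0.00963 in shCTRL libraries, and the groups did not overlap (exact two-sided permutation p = 0.1, also descriptive only).

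**Figure D1:**
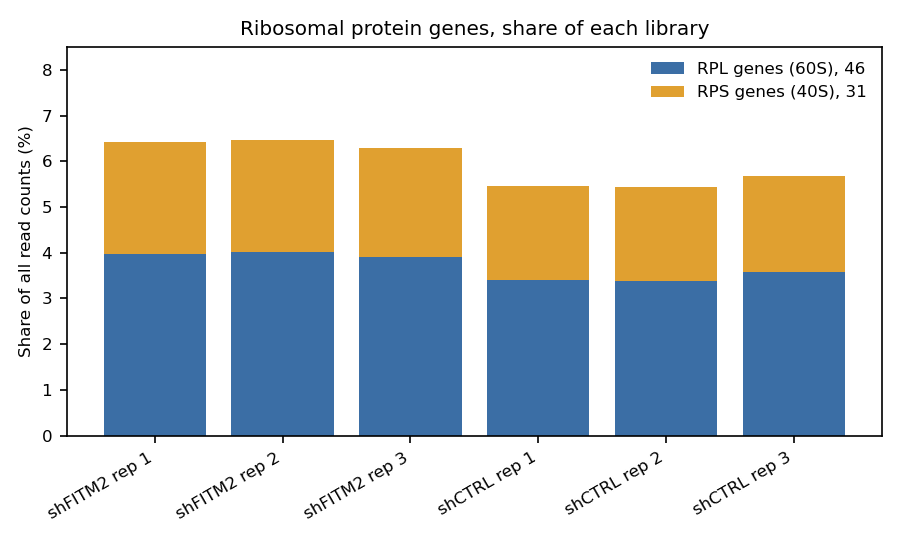
Share of all read counts (%, vertical axis) held by RPL genes (blue) and RPS genes (orange), stacked, in each of the 6 libraries. The 3 shFITM2 bars reach 6.29% to 6.47%, all above the 3 shCTRL bars at 5.45% to 5.68%.

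The members did not all rise. Without any correction, 35 members were higher in shFITM2 cells, 8 were lower and 34 were not called. Of all genes tested, 24.2% were called higher, 24.5% lower and 48.7% either way, so the members were called higher at 45.5% and lower at 10.4%. The median log2 fold change of the members was 0.24, with a range of -0.96 to 1.37, beside a median of -0.000197 over all genes. At least 2-fold changes were few, with 6 members called higher past that size (4.31% of all genes) and 0 called lower (0.952% of all genes). The 6 were RPL36, RPL8, RPL35, RPL27A, RPL11 and RPL26, all of the large subunit. By edgeR's test against a 1.5-fold change, 2 members were higher and 0 lower, against 1.82% and 0.513% of all genes.

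Replicate 3 of shCTRL lay between the groups for many members, and counts are therefore given with and without it. Every shFITM2 library lay above every shCTRL library for 40 members (29.1% of all genes) and below every shCTRL library for 12 (29.9% of all genes). Replicate 3 was the highest shCTRL library in 34 of the 40, and in 2984 of the 4315 genes of the whole table separated in that direction (20.1% of all genes). It was the lowest in 8 of the 12, and in 3152 of the 4425 genes separated in the other direction (21.3% of all genes). Among the 35 members called higher, shCTRL replicate 3 was the highest shCTRL library for 29. Among the 8 called lower it was the lowest shCTRL library for 6. Without that library, 46 members were higher and 24 lower, against 29.5% and 29.5% of all genes. Without shCTRL replicate 1, 21 were higher (17.8% of all genes). With any library other than shCTRL replicate 3 left out, between 3 and 5 members were lower (18.1% to 20.9% of all genes). Of the 43 called members, 24 were called in all 6 fits that left out a library.

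**Figure D2:**
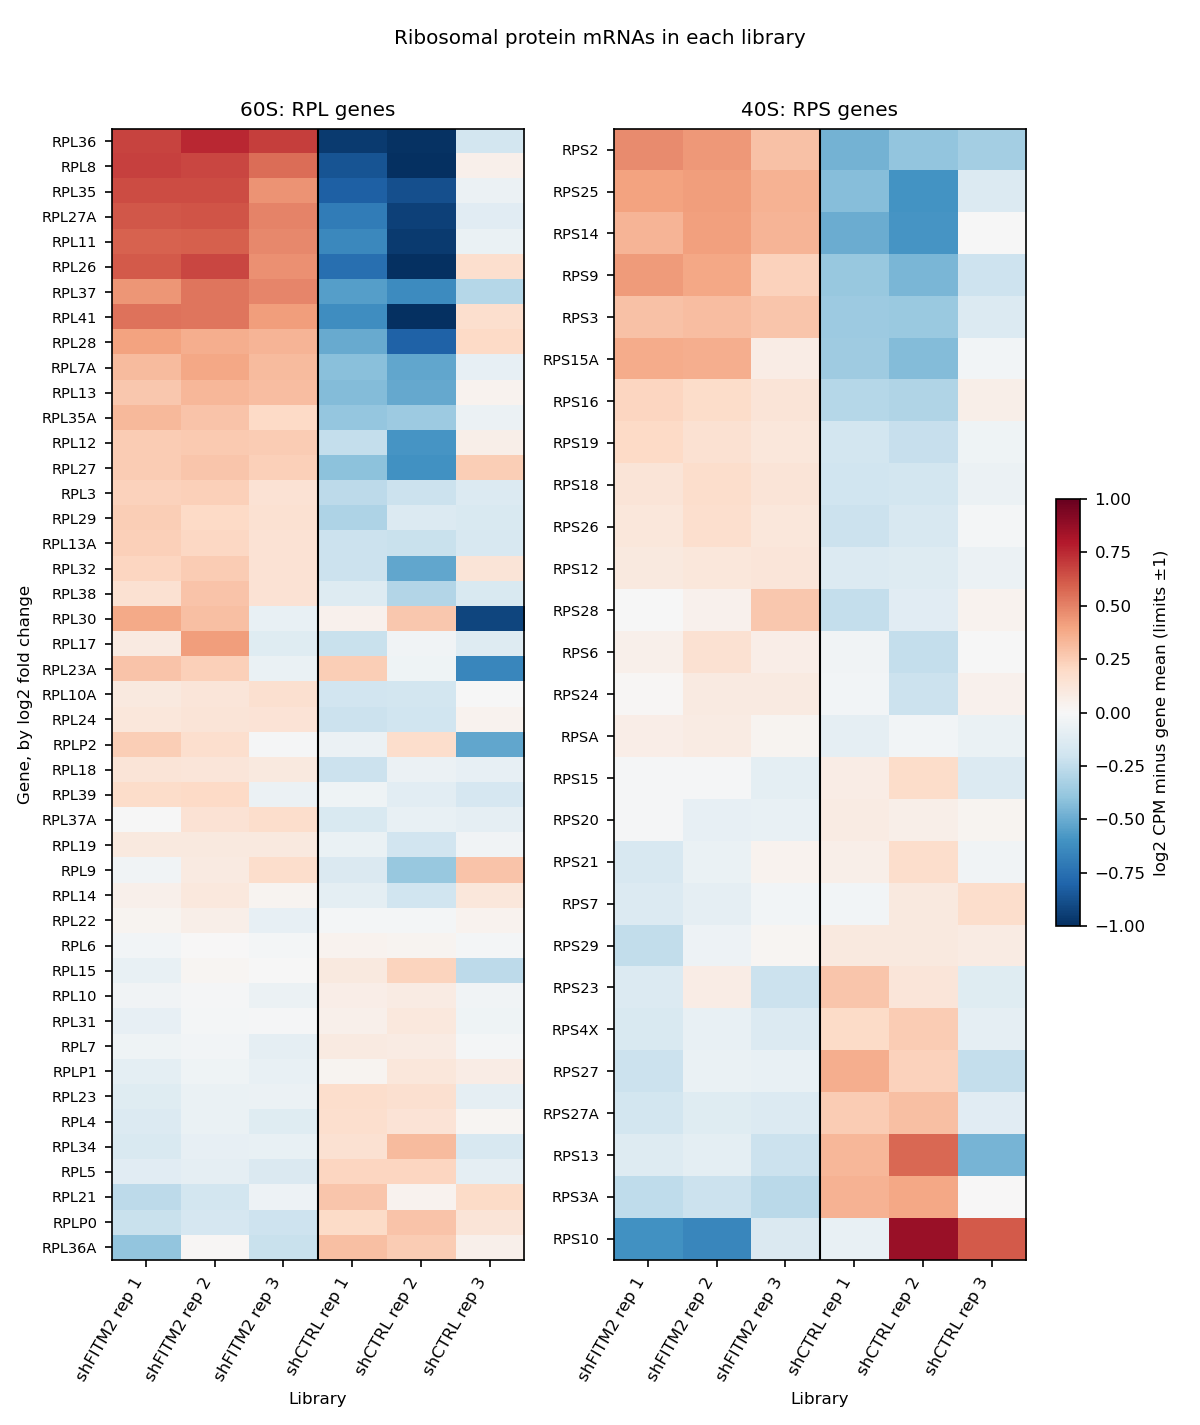
Log2 CPM of each member minus its mean over the 6 libraries (colour, with values past ±1 drawn at the limit), for 45 of 46 RPL genes (left) and 27 of 31 RPS genes (right), ordered by log2 fold change. RPL36 at the top was at 173 to 182 CPM in shFITM2 libraries and 54.3 to 95.3 CPM in shCTRL libraries, and shCTRL replicate 3 is paler than the other shCTRL libraries in most rows near the top.

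Fold changes ran with GC content across the whole table, upward for transcripts rich in G and C. Each gene's log2 level was taken as its deviation from the gene's mean over the 6 libraries. Against GC content, over all genes, these deviations sloped by 0.26, 0.22 and 0.18 per 10 points of GC in shFITM2 libraries. In shCTRL libraries the slopes were -0.26, -0.33 and -0.06. Such slopes compare the libraries with each other, so a sign does not give the direction of levels within a library. Over all genes the Spearman correlation of log2 fold change with GC content was 0.74, and over the 77 members it was 0.38, both across genes that share the same 6 libraries. The members' median GC content, 49.5%, was close to the 49.0% of all genes tested. It was 52.0% in members called higher, 46.6% in those called lower and 47.9% in those not called. The part of library preparation in this trend was not tested. The members' fold change had a Spearman correlation of 0.02 with the length of the annotated principal transcript, which is over 2000 bases for 15 members.

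A second edgeR fit therefore carried an offset for GC content in each gene and library, which takes out biological changes that run with GC content too. With it, 24 members were higher, 9 were lower and 44 were not called, against 11.9% and 17.4% of all genes, and the median log2 fold change was 0.15. Called higher in both fits were 19 members (7.89% of all genes), and called lower in both were 4 (9.95% of all genes). RPL18 was called in opposite directions by the fits (2.08% of all genes), higher without the offset and lower with it. Without the offset, the RPL18 call was absent when shCTRL replicate 1 was left out (edgeR adjusted p = 0.0582). SPHK2 on the opposite strand overlaps RPL18 with a mean count 11.6% of that of RPL18. Its read count was higher in every shFITM2 library than in any shCTRL library. A further 5 members, RPL17, RPL22, RPL7, RPS24 and RPS6, were called higher with the offset only, and RPL10, RPL31 and RPS21 were called lower with it only. Of these 8, only RPL22, RPS6, RPL10 and RPL31 were called in every fit with the offset that left out a library. Not called in either were 26. Without shCTRL replicate 3 the fit with the offset called 39 higher and 16 lower, against 15.8% and 21.9% of all genes, and without shFITM2 replicate 2 it called 14 higher (7.38% of all genes). GC content of the coding sequence alone, tried because 15 members have an annotated principal transcript over 2000 bases, gave 32 higher and 9 lower, against 15% and 19.8% of all genes. An offset for both GC content and transcript length gave 22 higher and 10 lower, against 1781 and 2465 of 14635 genes. The members' median log2 fold change was then 0.093, and it was 0.13 with the GC content of the longest transcript.

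The coding sequence offset changed the call or the size of several members. RPL31 turned to 0.11 and was not called with it (edgeR adjusted p = 0.0519). Members called with it but in neither other fit included RPL6 and RPS20, higher, and RPLP1, RPS15, RPS28 and RPS29, lower. Values that kept their call but moved by more than 1.5 times against the first offset included those of RPL10A (0.25), RPL18 (-0.16), RPL37A (0.17), RPL38 (0.60), RPL7 (0.23), RPS18 (0.24), RPS24 (0.42), RPS26 (0.16) and RPS3 (0.46).

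**Figure D3:**
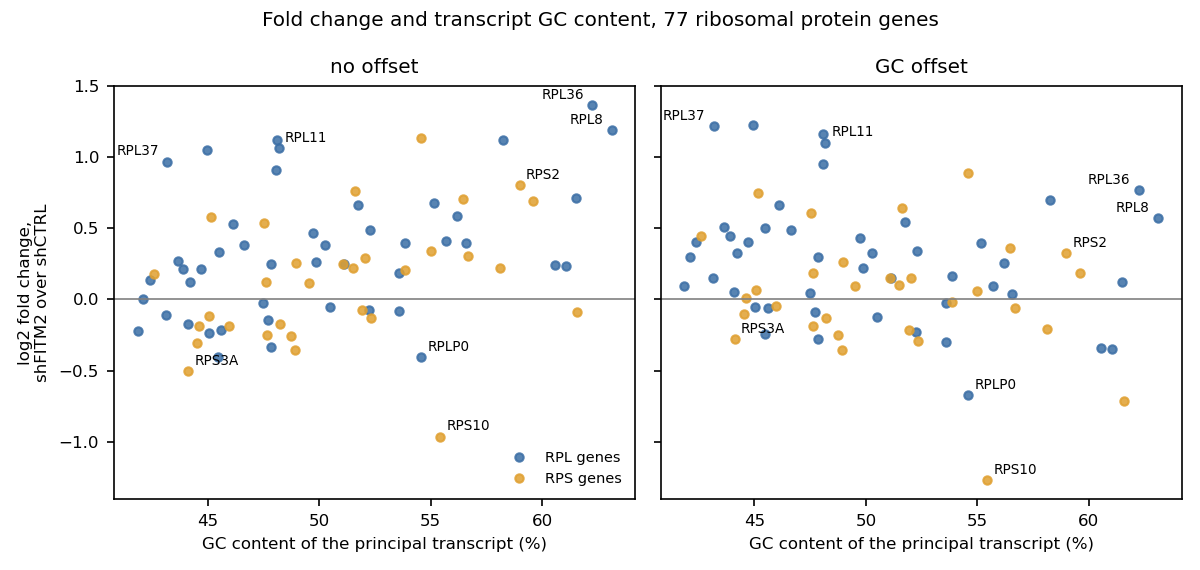
Log2 fold change, shFITM2 over shCTRL (vertical axis), against the GC content of the principal transcript (%, horizontal axis) for 77 members, without the offset (left) and with it (right). Blue points are RPL genes and orange points RPS genes. RPL36 and RPL8, at 62.2% and 63.1% GC, move down with the offset, while RPL37 at 43.2% GC is at 0.97 on the left and 1.22 on the right, and RPLP0 at -0.40 and -0.67.

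The stalk of the large subunit recruits the GTPases of translation, and its members did not move together. RPLP0, the protein that anchors the stalk to the ribosome (ENSG00000089157, chr12:120196686-120201235, minus strand), had 1976, 2059 and 1996 CPM in shFITM2 libraries, against 2632, 2816 and 2524 CPM in shCTRL libraries. The groups did not overlap. This was a log2 fold change of -0.40 ± 0.0611 (edgeR adjusted p = 0.000374) and -0.67 ± 0.0626 with the GC offset (edgeR adjusted p = 1.22e-05), and it was called in all 6 fits that left out a library. RPLP1 and RPLP2 are the acidic proteins that form the stalk with it. RPLP1 had 2032, 2101 and 2058 CPM in shFITM2 libraries, against 2210.2, 2348 and 2286 CPM in shCTRL libraries. The shFITM2 libraries were all below the shCTRL libraries, yet the log2 fold change of -0.14 ± 0.0563 was not called (edgeR adjusted p = 0.0512), except without shCTRL replicate 3 (edgeR adjusted p = 0.00167). With the offset RPLP1 was at -0.085 and not called (edgeR adjusted p = 0.150), and by the GC content of the coding sequence at -0.31 and called lower (edgeR adjusted p = 0.000193). RPLP2 had 744, 703 and 621 CPM in shFITM2 libraries, against 603, 707 and 438 CPM in shCTRL libraries, and its groups overlapped. The fitted log2 fold change was 0.24 without the offset and -0.34 with it, neither called (edgeR adjusted p = 0.298 and 0.462). Leaving out shCTRL replicate 3 gave RPLP2 values of 0.066 without the offset and -0.59 with it, the second of them called (edgeR adjusted p = 0.0377), and leaving out shCTRL replicate 2 gave 0.40 and -0.11. By the GC content of the coding sequence it was 0.00250 (edgeR adjusted p = 0.995). RPL12, at the base of the stalk, was higher with a log2 fold change of 0.49 ± 0.146 (edgeR adjusted p = 0.0272), but not called with the offset (0.34, edgeR adjusted p = 0.175) except without shCTRL replicates 2 or 3 (edgeR adjusted p 0.0222 to 0.0378). Without the offset, leaving out shCTRL replicate 1 or any shFITM2 library ended the RPL12 call (edgeR adjusted p 0.0595 to 0.0649).

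RPL5 and RPL11, which travel with 5S ribosomal RNA as a single particle, moved in opposite directions. RPL11 (ENSG00000142676, chr1:23691742-23696835, plus strand) had 605, 609.9 and 561 CPM in shFITM2 libraries, against 257, 207 and 385 CPM in shCTRL libraries. Every shFITM2 library was above every shCTRL library, and shCTRL replicate 3 was the highest of the controls. The log2 fold change was 1.07 ± 0.232 (edgeR adjusted p = 0.0128), and 1.10 ± 0.267 with the offset (edgeR adjusted p = 0.0454). With the offset, the RPL11 call was lost without any library other than shCTRL replicate 3 (edgeR adjusted p 0.0796 to 0.143). RPL5 (ENSG00000122406, chr1:92831983-92841924, plus strand) had 850.3, 866 and 835 CPM in shFITM2 libraries, against 1069, 1069 and 865 CPM in shCTRL libraries. Its 3 shFITM2 values lay close together and overlapped shCTRL replicate 3, with the other shCTRL libraries higher. The log2 fold change was -0.24 ± 0.0811 (edgeR adjusted p = 0.0311), a call lost without any library other than shCTRL replicate 3 (edgeR adjusted p 0.0809 to 0.139). With the offset it was -0.055 and not called (edgeR adjusted p = 0.525), except without shCTRL replicate 3, where it was -0.13 (edgeR adjusted p = 0.00377). It was -0.016 without shCTRL replicate 1, -0.023 without shCTRL replicate 2 and -0.028 without shFITM2 replicate 3, and 0.074 with the GC content of the coding sequence.

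Among 9 genes of the response to free ribosomal proteins, 5 were higher and 3 lower without the offset (24.2% and 24.5% of all genes). With it, 3 were higher and 2 lower (11.9% and 17.4% of all genes). MDM2 averaged 34.3 ± 2.04 CPM in shFITM2 libraries and 54.0 ± 6.49 CPM in shCTRL libraries (log2 fold change -0.66, edgeR adjusted p = 0.000417, and -0.35 with the offset). CDKN1A, which encodes the cell cycle inhibitor p21, averaged 12.4 ± 1.03 CPM in shFITM2 libraries and 6.38 ± 1.25 CPM in shCTRL libraries (log2 fold change 0.97, edgeR adjusted p = 0.00058, and 0.54 with the offset). ZMAT3, an RNA-binding zinc finger protein, had a log2 fold change of -0.74 (edgeR adjusted p = 0.000675), and -0.35 with the offset. BAX, a pore-forming protein of apoptosis, rose without the offset (0.55, edgeR adjusted p = 0.000399) and had a log2 fold change of 0.00242 with it. The median log2 fold change of the 9 was 0.55, and 0.18 with the offset.

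The peptide exit tunnel is lined or ringed by 8 members. Without the offset 4 of them were higher and 1 lower (24.2% and 24.5% of all genes). With it, 2 were higher and 1 lower (11.9% and 17.4% of all genes). RPL35, at the tunnel exit, had 599, 596 and 518 CPM in shFITM2 libraries, against 216, 207 and 364 CPM in shCTRL libraries. The shFITM2 libraries were well above all shCTRL libraries, and the log2 fold change was 1.12 ± 0.243 (edgeR adjusted p = 0.0130). With the offset it was 0.70 and not called (edgeR adjusted p = 0.0621), except without shCTRL replicate 3 (edgeR adjusted p = 9.70e-25) and by the GC content of the coding sequence (0.86, edgeR adjusted p = 0.0461). RPL26, which also lies at the exit, had 35.0, 36.3 and 31.4 CPM in shFITM2 libraries, against 13.6, 10.4 and 25.7 CPM in shCTRL libraries, with shCTRL replicate 3 nearer the shFITM2 libraries than the other shCTRL libraries. By edgeR the log2 fold change was 1.05 ± 0.329 (edgeR adjusted p = 0.0422), a call lost without shCTRL replicate 1 or any shFITM2 library (edgeR adjusted p 0.0607 to 0.102), and 1.23, not called, with the offset (edgeR adjusted p = 0.0895), except without shCTRL replicate 3, where it was 1.72 (edgeR adjusted p = 8.83e-19). Genes named as RPL26 pseudogenes held 10.9% to 15.7% of the family's reads in shFITM2 libraries and 17.5% to 32.9% in shCTRL libraries, so the split of reads between copies was uncertain for this member.

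RPL39, a very short protein of the tunnel wall, had 313, 317 and 266 CPM in shFITM2 libraries, against 268, 257 and 246 CPM in shCTRL libraries, and its groups overlapped. On the log2 scale the change was 0.22 ± 0.0781 (edgeR adjusted p = 0.0382), a call lost without shCTRL replicates 1 or 2 or shFITM2 replicates 1 or 2 (edgeR adjusted p 0.0706 to 0.189). With the offset it was 0.44 ± 0.0697 (edgeR adjusted p = 0.000682), a call lost without shCTRL replicate 3 (edgeR adjusted p = 0.0531). RPL4, whose loop narrows the tunnel, fell by 0.22 on the log2 scale (edgeR adjusted p = 0.0116) and was not called with the offset (-0.063, edgeR adjusted p = 0.295). RPL4 was also not called when shCTRL replicate 1 or shFITM2 replicates 1 or 3 were left out (edgeR adjusted p 0.0510 to 0.0634). RPL19 was called higher without the offset only, and not when any library other than shCTRL replicate 3 was left out (edgeR adjusted p 0.0666 to 0.115). With the offset, RPL31 was called lower and RPL17 higher, neither of them called without it, and RPL23A was called in neither fit.

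Other large subunit members gave the largest rises. RPL36 (ENSG00000130255, chr19:5674947-5691876, plus strand) had 173, 182 and 174 CPM in shFITM2 libraries, against 55.7, 54.3 and 95.3 CPM in shCTRL libraries, with no overlap between the groups. Its log2 fold change was 1.37 ± 0.230 (edgeR adjusted p = 0.00422), and 0.77 ± 0.122 with the offset (edgeR adjusted p = 0.00391). RPL36 lies opposite LONP1, a mitochondrial protease gene on the other strand whose mean count was 75.2% of that of RPL36. C19orf70, also on the other strand, overlaps RPL36 with a mean count 12.8% of that of RPL36. Read counts of LONP1 and C19orf70 were each higher in every shFITM2 library than in any shCTRL library. The setting used for strand in the counting is not given in the sources used here, so reads of these genes and RPL36 cannot be told apart with certainty. RPL27A (ENSG00000166441, chr11:8682411-8714759, plus strand), another large subunit protein, had 1323, 1327 and 1209.9 CPM in shFITM2 libraries, against 530.3, 450.1 and 795 CPM in shCTRL libraries. The fitted log2 fold change was 1.12 ± 0.217 (edgeR adjusted p = 0.00803), and 1.16 ± 0.254 with the offset (edgeR adjusted p = 0.0343), a call then lost without any library other than shCTRL replicate 3 (edgeR adjusted p 0.0712 to 0.114). RPL8, which helps build the peptidyl transferase centre, had 2138, 2119 and 1959.7 CPM in shFITM2 libraries, against 730.5, 619 and 1379 CPM in shCTRL libraries, with shCTRL replicate 3 above the other controls. Its log2 fold change of 1.19 ± 0.338 (edgeR adjusted p = 0.0396) was lost as a call without any library other than shCTRL replicate 3 (edgeR adjusted p 0.0626 to 0.102), and was 0.57 and not called with the offset (edgeR adjusted p = 0.130) except without shCTRL replicate 3 (edgeR adjusted p = 5.40e-25).

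RPL37 (ENSG00000145592, chr5:40825262-40835335, minus strand), a zinc finger protein that contacts ribosomal RNA, had 311, 329.8 and 320.4 CPM in shFITM2 libraries, against 155, 148 and 187 CPM in shCTRL libraries. All controls were within a narrow range far below the shFITM2 libraries. By edgeR the log2 fold change was 0.97 ± 0.0870 (edgeR adjusted p = 3.24e-05), and 1.22 ± 0.125 with the offset (edgeR adjusted p = 0.00104), and it was called in every fit that left out a library. RPL7A, an RNA-binding protein of the large subunit, had 1246, 1307 and 1249 CPM in shFITM2 libraries, against 749.5, 698 and 946 CPM in shCTRL libraries. RPL35A, mutated in some families with Diamond-Blackfan anaemia, had 340.1, 330.0 and 311 CPM in shFITM2 libraries, against 207, 211 and 261 CPM in shCTRL libraries. Neither gene's groups overlapped, and both kept their call in every fit that left out a library, with and without the offset. The log2 fold change was 0.67 ± 0.101 for RPL7A (edgeR adjusted p = 0.000569, with the offset 0.54). It was 0.53 ± 0.0891 for RPL35A (edgeR adjusted p = 0.000641, with the offset 0.66).

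RPL13A, known also as a repressor of inflammatory mRNAs in the GAIT complex, was the member with the most reads, at 3503, 3418 and 3279 CPM in shFITM2 libraries, against 2561, 2543 and 2656 CPM in shCTRL libraries. On the log2 scale the change was 0.39 ± 0.0570 (edgeR adjusted p = 0.000287) and 0.16 with the offset (edgeR adjusted p = 0.00641), a call then lost without shFITM2 replicate 2 (edgeR adjusted p = 0.0577) and by the GC content of the coding sequence (0.093, edgeR adjusted p = 0.103). RPL38, needed in mouse for the translation of a subset of Hox mRNAs, had 101, 109.9 and 99.7 CPM in shFITM2 libraries, against 82.6, 73.7 and 81.5 CPM in shCTRL libraries, with every shFITM2 library higher. This was a log2 fold change of 0.38 ± 0.0769 (edgeR adjusted p = 0.00181) and 0.33 with the offset. RPL10A, RPL24 and RPL37A rose by less, with log2 fold changes of 0.25, 0.25 and 0.21 (edgeR adjusted p = 0.00968, 0.0169 and 0.0231), and 0.15, 0.30 and 0.40 with the offset, all called. Without the offset, RPL24 lost its call in all fits but that without shCTRL replicate 3 (edgeR adjusted p 0.0576 to 0.0994). RPL37A was not called in the fits lacking shCTRL replicate 1 or shFITM2 replicates 2 or 3 (edgeR adjusted p 0.107 to 0.113), and RPL10A without shCTRL replicate 1 (edgeR adjusted p = 0.0639). With the offset RPL10A lost it without any library other than shCTRL replicate 3 (edgeR adjusted p 0.0545 to 0.139).

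RPL41, the smallest ribosomal protein and part of a bridge between the subunits, had 441, 437 and 404 CPM in shFITM2 libraries, against 197, 146 and 339.8 CPM in shCTRL libraries. The mean was higher in shFITM2 libraries, but shCTRL replicate 3 lay near them, and the log2 fold change of 0.91 ± 0.335 was not called (edgeR adjusted p = 0.0813) except without that library, where it was 1.31 (edgeR adjusted p = 0.00332). RPL21 (ENSG00000122026, chr13:27251309-27256691, plus strand), a large subunit protein, fell, with 1432, 1514 and 1659 CPM in shFITM2 libraries, against 2080.3, 1759.8 and 1964 CPM in shCTRL libraries. Its log2 fold change was -0.33 ± 0.0773 (edgeR adjusted p = 0.00422) and -0.28 with the offset (edgeR adjusted p = 0.00680), a call then lost without shCTRL replicate 3 (edgeR adjusted p = 0.142). By the GC content of the coding sequence the RPL21 value was -0.00830 and not called (edgeR adjusted p = 0.953). RPL21 has 66 named pseudogenes, which held 5.37% to 5.45% of the family's reads in shFITM2 libraries and 3.85% to 4.69% in shCTRL libraries.

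**Figure D4:**
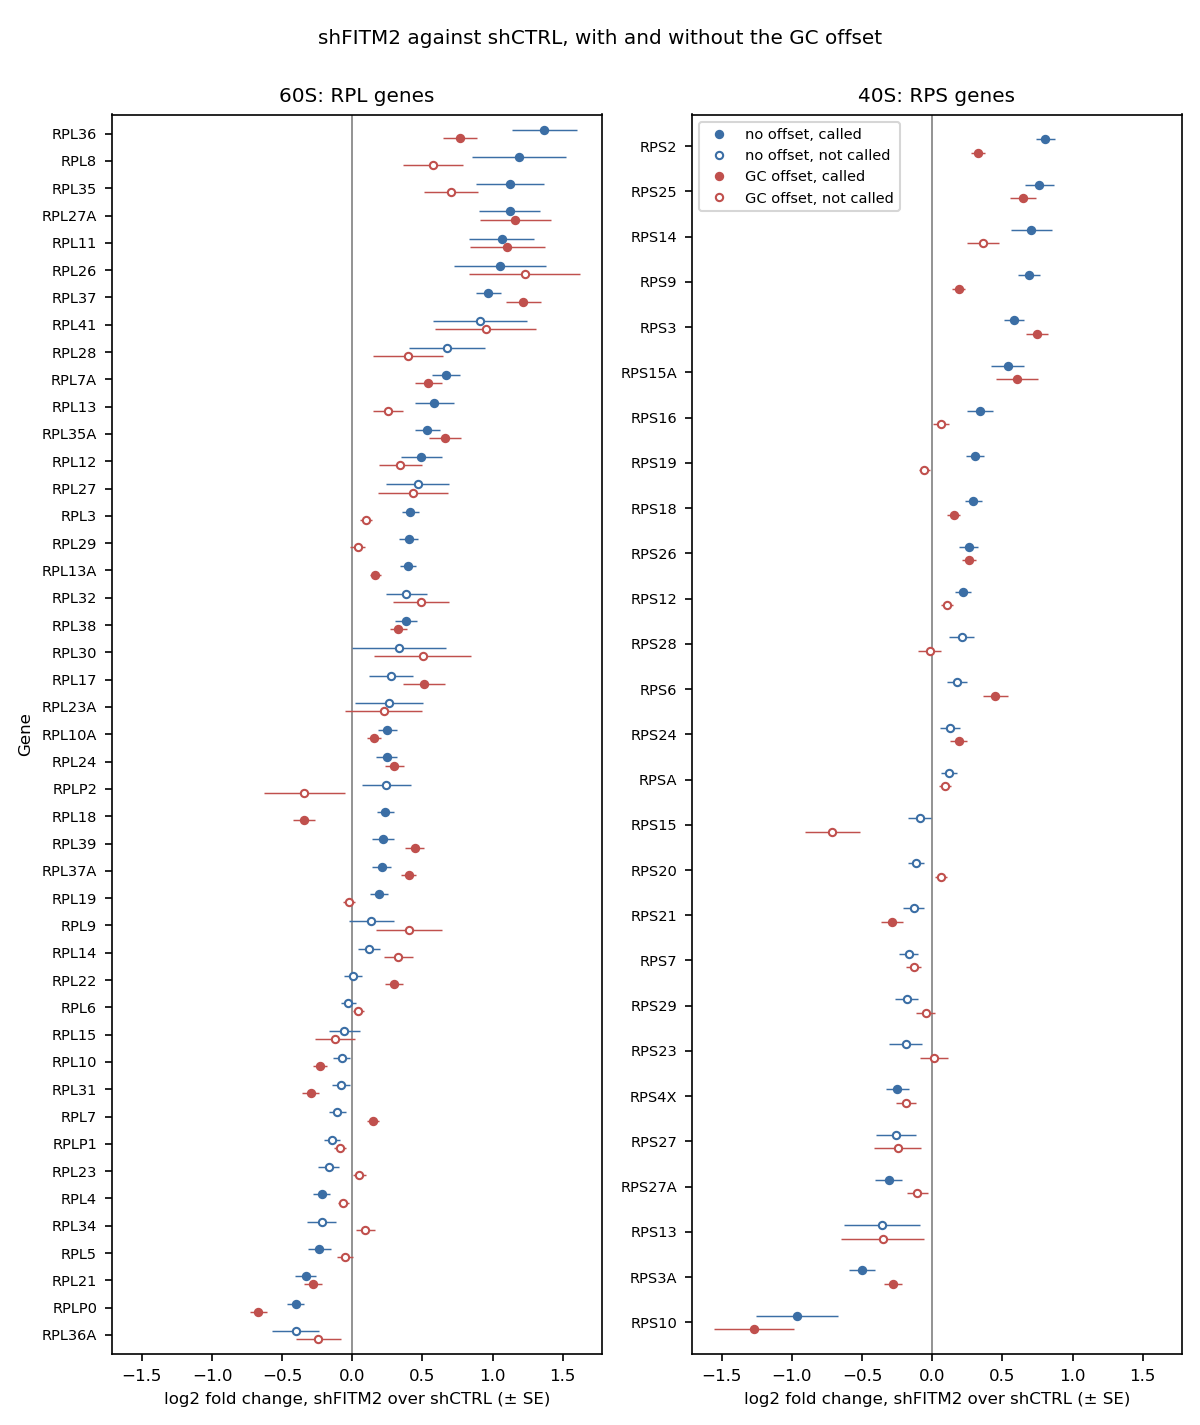
Log2 fold change, shFITM2 over shCTRL, with its standard error (horizontal axis) for 45 of 46 RPL genes (left) and 27 of 31 RPS genes (right), without (blue) and with (red) the GC offset. Filled points were called by edgeR and open points were not. RPL36 at 1.37 is at one end and RPS10 at -0.96 at the other, and RPL18 has filled points on opposite sides of 0.

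In the small subunit, 13 of 31 members were higher and 4 lower without the offset (24.2% and 24.5% of all genes). With it, 9 were higher and 4 lower (11.9% and 17.4% of all genes). RPS2 and RPS3 line the channel through which mRNA enters. RPS2 (ENSG00000140988, chr16:1962052-1964860, minus strand) had 2190.2, 2133 and 1929 CPM in shFITM2 libraries, against 1136, 1198 and 1245 CPM in shCTRL libraries, and its controls lay close together. By edgeR the log2 fold change was 0.80 ± 0.0674 (edgeR adjusted p = 2.42e-05) and 0.33 ± 0.0523 with the offset (edgeR adjusted p = 0.000286). Its 20 named pseudogenes held 9.06% to 9.83% of the family's reads in shFITM2 libraries and 8.18% to 12.1% in shCTRL libraries. RPS3 (ENSG00000149273, chr11:75399486-75422280, plus strand), which is also found in DNA repair complexes, had 1797, 1821 and 1775 CPM in shFITM2 libraries, against 1139, 1136 and 1334 CPM in shCTRL libraries. On the log2 scale the change was 0.58 ± 0.0712 (edgeR adjusted p = 0.000127) and 0.75 ± 0.0790 with the offset (edgeR adjusted p = 0.000168). RPS2 and RPS3 were called in every fit that left out a library, with and without the offset.

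RPS9, also of the entry channel, had 901, 876 and 785 CPM in shFITM2 libraries, against 515, 489.9 and 582 CPM in shCTRL libraries. This was a log2 fold change of 0.69 ± 0.0792 (edgeR adjusted p = 8.83e-05) and 0.19 with the offset (edgeR adjusted p = 0.00481), a call then lost without shFITM2 replicate 2 (edgeR adjusted p = 0.0508). RPS25, which initiation at viral internal ribosome entry sites requires, had 471, 475 and 453 CPM in shFITM2 libraries, against 265, 235 and 324 CPM in shCTRL libraries, with the groups far apart. The fitted log2 fold change was 0.76 ± 0.103 (edgeR adjusted p = 0.000287) and 0.65 ± 0.0932 with the offset (edgeR adjusted p = 0.00173). RPS25 partly overlaps TRAPPC4 on the opposite strand, whose mean count was 9.29% of that of RPS25.

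RPS15A had 142, 141 and 115 CPM in shFITM2 libraries, against 85.7, 81.1 and 108 CPM in shCTRL libraries, where shFITM2 replicate 3 and shCTRL replicate 3 came close. Its log2 fold change was 0.54 ± 0.118 (edgeR adjusted p = 0.00416) and 0.60 with the offset (edgeR adjusted p = 0.0295), a call then lost without shCTRL replicates 1 or 2 or shFITM2 replicates 1 or 2 (edgeR adjusted p 0.0692 to 0.0947). RPS18, in the head where it contacts the large subunit, and RPS26, by the mRNA exit channel and a Diamond-Blackfan anaemia gene, changed by less. Their log2 fold changes were 0.29 and 0.26 (edgeR adjusted p = 0.00248 and 0.00785), and 0.15 and 0.26 with the offset, all called. The RPS26 call was lost without shCTRL replicate 1 or shFITM2 replicate 2 (edgeR adjusted p 0.0529 to 0.0572). The RPS18 call with the offset did not survive leaving out shCTRL replicate 1 or shFITM2 replicates 2 or 3 (edgeR adjusted p 0.0575 to 0.105).

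Of the 14 members of the 40S head, 7 were higher and 2 lower without the offset (24.2% and 24.5% of all genes). With it, 3 were higher and 2 lower (11.9% and 17.4% of all genes). The lower head members without the offset were RPS10 and RPS27A. RPS10 (ENSG00000124614, chr6:34417454-34426125, minus strand), another Diamond-Blackfan anaemia gene, had 1.54, 1.50 and 2.12 CPM in shFITM2 libraries, against 2.23, 4.27 and 3.58 CPM in shCTRL libraries, or 26 reads in its lowest library. On the log2 scale the change was -0.96 ± 0.290 (edgeR adjusted p = 0.0165) and -1.27 ± 0.286 with the offset (edgeR adjusted p = 0.00352). The call without the offset did not survive leaving out shCTRL replicate 2 or shFITM2 replicates 1 or 2 (edgeR adjusted p 0.0643 to 0.0674). Its 11 named pseudogenes held 57.6% to 63.4% of the family's reads in shFITM2 libraries and 44.0% to 57.6% in shCTRL libraries. The read-through gene RPS10-NUDT3, which contains RPS10, had 0 counts in every library. Reads that fit several genes may have been dropped from RPS10, and the counting rule for them is not given in the sources used here.

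RPS27A encodes a fusion of ubiquitin with a small subunit protein, and had 773, 810.2 and 799 CPM in shFITM2 libraries, against 1050.0, 1085 and 815 CPM in shCTRL libraries, with shCTRL replicate 3 near the shFITM2 libraries. This was a log2 fold change of -0.31 ± 0.0967 (edgeR adjusted p = 0.0224), a call lost without any library other than shCTRL replicate 3 (edgeR adjusted p 0.0569 to 0.0881). With the offset it was -0.11 and not called (edgeR adjusted p = 0.332), except without shCTRL replicate 3, where it was -0.20 (edgeR adjusted p = 7.02e-06). It was -0.067 without shCTRL replicate 1 and -0.050 without shCTRL replicate 2, and 0.020 by the GC content of the coding sequence. Its named pseudogenes held 8.73% to 12.3% of the family's reads in shFITM2 libraries and 5.18% to 15.1% in shCTRL libraries.

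RPS3A (ENSG00000145425, chr4:151099573-151104652, plus strand), on the platform of the small subunit beside the mRNA exit, fell in both fits. It had 708, 727 and 703 CPM in shFITM2 libraries, against 1074, 1104 and 848 CPM in shCTRL libraries, with every shFITM2 library lower. The fitted log2 fold change was -0.50 ± 0.0905 (edgeR adjusted p = 0.00110) and -0.28 ± 0.0651 with the offset (edgeR adjusted p = 0.00706), and it was called in every fit that left out a library. By the GC content of the coding sequence it was -0.14 and not called (edgeR adjusted p = 0.0732). SH3D19 on the opposite strand overlaps it with a mean count 14.2% of that of RPS3A. The read count of SH3D19 was also lower in every shFITM2 library than in any shCTRL library. RPS4X, the X-linked gene of an RNA-binding small subunit protein, had 1048, 1103 and 1061 CPM in shFITM2 libraries, against 1333, 1389 and 1096 CPM in shCTRL libraries. By edgeR the log2 fold change was -0.25 ± 0.0830 (edgeR adjusted p = 0.0269), a call lost without any library other than shCTRL replicate 3 (edgeR adjusted p 0.0641 to 0.110). With the offset it was -0.19 and not called (edgeR adjusted p = 0.0759), except without shCTRL replicate 3 (edgeR adjusted p = 7.18e-09).

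RPS6, the substrate of the S6 kinases downstream of mTORC1, had 1001, 1073 and 1015 CPM in shFITM2 libraries, against 944, 821 and 967 CPM in shCTRL libraries. Its log2 fold change was 0.18 ± 0.0719 and not called without the offset (edgeR adjusted p = 0.0602), except without shCTRL replicate 3 (edgeR adjusted p = 0.00036), and 0.45 ± 0.0883 and called with it (edgeR adjusted p = 0.00700). RPSA, the laminin receptor precursor, had 1142, 1155 and 1109.6 CPM in shFITM2 libraries, against 1025, 1072 and 1044 CPM in shCTRL libraries. Its log2 fold change of 0.12 ± 0.0566 was not called without the offset (edgeR adjusted p = 0.106), except without shCTRL replicate 3 (edgeR adjusted p = 0.0276), nor with it (edgeR adjusted p = 0.111).

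Other members changed by less or with more spread. Called higher without the offset only were also RPL3, RPL13, RPL29, RPS12, RPS14, RPS16 and RPS19, with log2 fold changes running from 0.22 for RPS12 to 0.71 for RPS14, and from -0.057 for RPS19 to 0.36 for RPS14 with the offset. With the offset, RPL13, RPS12, RPS14 and RPS16 were called without shCTRL replicate 3 (edgeR adjusted p 1.06e-16 to 0.0137). By the GC content of the coding sequence RPL3, RPL29, RPS12 and RPS14 were called higher (edgeR adjusted p 4.18e-05 to 0.0392). Leaving out shCTRL replicate 1 ended the calls of RPS12 and RPS16, and leaving out shFITM2 replicate 2 that of RPS12 (edgeR adjusted p 0.0510 to 0.0553). The 16 members called higher without the offset only had a median GC content of 56.3%, and the 19 called higher in both fits had 49.0%. A wide spread among the controls was present for RPL27, at 687, 696 and 679 CPM in shFITM2 libraries, against 433, 378 and 683 CPM in shCTRL libraries. RPL23A, RPL30, RPLP2 and RPS13 had their lowest value of all 6 libraries in shCTRL replicate 3. The same library was lowest of all for 10 members, against 11.1% of all genes. RPL30 was at 132, 125 and 96.0 CPM in shFITM2 libraries, against 104, 122 and 53.7 CPM in shCTRL libraries.

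Levels per length ranged widely within the family. In CPM per kilobase of principal transcript, shCTRL levels were highest for RPL21 (1877 ± 144 in shFITM2 cells and 2374 ± 189.8 in shCTRL cells) and RPL13A (2869 ± 91.6 and 2191 ± 35.8). RPLP0, at 1594 ± 29.3 in shFITM2 cells and 2116 ± 133 in shCTRL cells, came next. RPL21, RPL13A, RPLP0, RPS16, RPLP1 and RPS20 were among the 10 highest in shCTRL cells both by transcript length and by coding length. The lowest level by either length was that of RPS10, at 2.66 ± 0.551 in shFITM2 cells and 5.22 ± 1.63 in shCTRL cells by transcript length. RPL17, RPL36A, RPL26 and RPS23 were also near the bottom by both. The level of a gene whose reads fit other copies is uncertain. Genes named as pseudogenes of RPL9 held as much as 65.3% of that family's reads in a library.

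The name rule leaves out a few proteins of the same ribosome and its paralogs. FAU and RACK1, which encode other cytosolic ribosomal proteins, were not called in either fit, with log2 fold changes of -0.16 and 0.24 (edgeR adjusted p = 0.304 and 0.0617), and -0.74 and 0.019 with the offset. Of 5 ribosomal protein paralogs tested, 1 was higher and 2 lower, with and without the offset. All genes stood at 24.2% and 24.5% without it, and at 11.9% and 17.4% with it. RPL36AL, a close paralog of RPL36A, averaged 63.5 ± 2.58 CPM in shFITM2 libraries and 37.5 ± 4.97 CPM in shCTRL libraries (log2 fold change 0.76, edgeR adjusted p = 0.000185, and 1.04 with the offset). Set against RPL36A in read counts, it stood at a ratio of 11.0 to 14.1 in shFITM2 libraries and 4.50 to 6.46 in shCTRL libraries. RPL22L1, which can replace RPL22, averaged 23.2 ± 1.88 CPM in shFITM2 libraries and 42.1 ± 6.85 CPM in shCTRL libraries (log2 fold change -0.86, edgeR adjusted p = 0.000279, and -0.58 with the offset). Its ratio to RPL22 was 0.0926 to 0.117 in shFITM2 libraries and 0.148 to 0.213 in shCTRL libraries. RPL7L1 fell by 0.36 on the log2 scale (edgeR adjusted p = 0.000841), and by 0.18 with the offset.

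Other mRNAs of the TOP class were mixed. Of 14 tested, 4 were higher and 4 lower without the offset (24.2% and 24.5% of all genes), with a median of 0.06. With it, 5 were higher and 2 lower (11.9% and 17.4% of all genes), with a median of 0.06. HNRNPA1, a splicing regulator, averaged 1019 ± 29.3 CPM in shFITM2 libraries and 801 ± 29.7 CPM in shCTRL libraries (log2 fold change 0.35, edgeR adjusted p = 0.000733, and 0.60 with the offset). EEF2, the translocation factor of elongation, had a log2 fold change of 0.57 without the offset (edgeR adjusted p = 0.00246) and 0.061 with it (edgeR adjusted p = 0.386). NAP1L1, a histone chaperone, averaged 549 ± 8.88 CPM in shFITM2 libraries and 953 ± 146 CPM in shCTRL libraries (log2 fold change -0.80, edgeR adjusted p = 0.000197, and -0.36 with the offset). EIF3E, a subunit of initiation factor eIF3, fell by 0.52 on the log2 scale (edgeR adjusted p = 0.000281) and was not called with the offset (edgeR adjusted p = 0.117). EEF1G was listed with 0 counts in every library.

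Regulators of TOP mRNAs also moved both ways. Of 14 tested, 2 were higher and 7 lower without the offset (24.2% and 24.5% of all genes). With it, 2 were higher and 6 lower (11.9% and 17.4% of all genes). EIF4EBP1, the inhibitor of the cap-binding protein that mTORC1 inactivates, averaged 52.9 ± 4.93 CPM in shFITM2 libraries and 24.1 ± 3.49 CPM in shCTRL libraries (log2 fold change 1.14, edgeR adjusted p = 5.34e-05, and 0.37 with the offset). EIF4E, the cap-binding protein itself, averaged 64.2 ± 2.36 CPM in shFITM2 libraries and 98.5 ± 9.02 CPM in shCTRL libraries (log2 fold change -0.62, edgeR adjusted p = 0.000197, and -0.21 with the offset). LARP4 and CNBP, RNA-binding proteins of these mRNAs, had log2 fold changes of -0.66 and -0.59 (edgeR adjusted p = 0.000127 and 0.000247), and -0.17 and -0.39 with the offset. LARP1 had a log2 fold change of -0.15, not called without the offset (edgeR adjusted p = 0.0874), and of -0.26, called lower, with it (edgeR adjusted p = 0.000695).

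Of 11 genes listed as ribosomal protein chaperones, 2 were higher and 5 lower, with and without the offset. The shares of all genes were 24.2% and 24.5% without it, and 11.9% and 17.4% with it. AAMP, whose yeast relative escorts Rpl10, had a log2 fold change of 0.65 (edgeR adjusted p = 8.72e-05) and 0.19 with the offset (edgeR adjusted p = 0.129). HEATR3, which carries RPL5 and RPL11, averaged 27.8 ± 0.529 CPM in shFITM2 libraries and 38.4 ± 2.98 CPM in shCTRL libraries (log2 fold change -0.47, edgeR adjusted p = 0.00144, and -0.34 with the offset). BCCIP, which binds RPL23, had a log2 fold change of -0.50 (edgeR adjusted p = 0.000358) and was not called with the offset (edgeR adjusted p = 0.189).

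Proteins of the mitochondrial ribosome, which are made in the cytosol from nuclear genes, were counted in the same fits. Of 76 tested, 19 were higher and 21 lower without the offset, against 24.2% and 24.5% of all genes. The median log2 fold change was -0.02. With the offset 13 were higher and 23 lower, against 11.9% and 17.4% of all genes. The 77 cytosolic members had 35 higher and 8 lower, then 24 higher and 9 lower. The difference between the families was not tested.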

How the data were processed

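The authors deposited 1 table with the raw read count of each gene in the 6 libraries, made with Trizol total RNA and a strand-keeping library kit, per the labels' protocols. Per the submitters' processing notes, which give no roles, the tools were featureCounts 1.5.0-p3, HISAT2 2.0.5, DESeq2 1.16.1 and StringTie 1.3.3b, with hg19. How strand and reads with several matches were counted is not given in the sources used here. The table's positions are those of GRCh38: all 58735 of its genes that GENCODE release 29 holds, including all 77 ribosomal protein genes, have the GENCODE 29 position and strand.

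Groups came from the sample titles. Differences were tested by the robust quasi-likelihood F-test of edgeR 4.0.16 (R 4.3.3) with group as the sole term, TMM normalization, a filter with minimum count 10 and minimum total 15, and Benjamini-Hochberg adjustment over 14809 genes. CPM are counts scaled to TMM library size, and log2 fold changes are shFITM2 over shCTRL ± standard error. The second fit added as offset a per-library spline with 6 degrees of freedom, fitted to log2 deviations against the GC content of 1 APPRIS principal GENCODE transcript per gene, for 14635 genes. Alternatives used DESeq2 1.42.0 and limma 3.58.1. The replicate numbers of the titles do not pair the libraries. Replicates of a group differed by more than sampling noise, with a chi-square per gene of 2.35 to 28.6, and each library was treated as a sample. The largest values, 20.2 and 28.6, were of pairs with shCTRL replicate 3. Such excess does not show that the libraries are separate cultures. The scripts were tested on simulated counts.

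The members and the gene lists were chosen with earlier results of these data known. Members given library by library are those called in the same direction in both fits, the 6 with the largest called rise and the 6 with the largest called fall, and 13 fixed members. From each list up to 4 genes with the smallest p are named. FAU, RACK1, RPL7L1, EEF1G, LARP1 and the other members outside this rule were named after their values were seen. Values of some single genes are not reported here, though members among them are counted in the totals.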

Additional observations from a re-analysis of the deposited data

How the results depend on the processing

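Of the 77 members, 35 were called higher and 8 lower without the GC offset, and 24 and 9 with it. These counts stayed within 1.5 times under other scalings, other filters, DESeq2's Wald test, limma-voom and removal of mitochondrial genes. A test against a 1.5-fold change gave 2 higher and 0 lower, against 269 and 76 of 14809 genes. An edgeR adjusted p under 0.01 gave 24 higher and 3 lower, against 2362 and 2575 of 14809 genes. Leaving out a library in turn gave 21 to 46 higher and 3 to 24 lower without the offset. Over all genes, the fits at these ends called 17.8% and 29.5% higher, and 18.1% and 29.5% lower. With the offset, 14 to 39 members were higher and 8 to 16 lower. The fits with 14 and 39 higher called 7.38% and 15.8% of all genes higher, and that with 16 lower called 21.9% lower. Those with 8 lower called 1696 of 15004 and 1771 of 15029 genes lower. With the replicate number as a block, 36 were higher and 8 lower, against 3444 and 3285 of 14809 genes. With the offset and the block, 24 were higher and 10 lower, against 1728 and 2473 of 14635 genes. Same-numbered libraries did not deviate together (correlations of -0.041, -0.0066 and -0.065), so this block is not a pairing. The difference in summed share, 0.868 points, was 0.827 to 0.946 points over the alternatives that apply to raw shares, such as leaving out a library. No GC offset enters this share, so the range does not speak of GC content.

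RPLP2 (0.24) changed sign with GC content: -0.34 with the offset, -0.36 by the longest transcript, -0.40 with length added, -0.29 with the block, -0.34 from DESeq2 size factors, and with each library left out -0.31, -0.11 and -0.59 (shCTRL replicates 1, 2 and 3) and -0.38, -0.36 and -0.30 (shFITM2 replicates 1, 2 and 3). With GC content of the coding sequence, added after seeing the data, RPL5 was 0.074 and RPS27A 0.020, both reversed, while RPLP2 was 0.00250. The cause was not tested. Depth limits RPS10 and RPL36A, which had under 100 counts in some library.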
